A study of Mus musculus with 9 samples.

Results

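The calcium channel alpha-1 genes described here are Cacna1a, Cacna1b, Cacna1c, Cacna1d, Cacna1e, Cacna1g, Cacna1h and Cacna1i. They were taken by symbol from a table of raw counts and are 8 of its 54838 genes. Each of the 8 symbols had its own row, and the other alpha-1 genes of the table, Cacna1f and Cacna1s, were outside the choice. The study asks how the mouse paraventricular hypothalamus, which controls pituitary hormones and autonomic outflow, handles visceral and somatic pain. Neurons were cut from brain tissue by laser-capture microdissection and sequenced by Smart-3SEQ, which counts the 3′ ends of polyadenylated RNA. The 9 libraries form 3 groups of 3, called overlap, cfos (named for the immediate early gene Fos, a marker of recent activity) and mCherry (named for a red fluorescent protein). The design text speaks of cells labelled in relation to CRD, to VFF, or to both. The labels do not say which marker stands for which, and they give no strain, genotype, sex, age or animal for any group. Nothing ties the replicates to separate animals, so p-values measure only the spread between these libraries.

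An alpha-1 subunit is the large membrane protein that forms the pore and the voltage sensor of a voltage-gated calcium channel, and it decides which current the channel carries. Cacna1c (Cav1.2) and Cacna1d (Cav1.3) carry L-type currents, which couple electrical activity to gene transcription and to hormone release. Cacna1a (Cav2.1, P/Q-type), Cacna1b (Cav2.2, N-type) and Cacna1e (Cav2.3, R-type) supply the calcium that triggers transmitter release, and Cacna1b is the target of the analgesic ziconotide. Cacna1g (Cav3.1), Cacna1h (Cav3.2) and Cacna1i (Cav3.3) carry T-type currents, which open near the resting potential and shape burst firing. In hypothalamic neurosecretory neurons calcium entry through such channels is known to drive the release of peptide hormones.

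The high-voltage-activated channels (Cav1 and Cav2) and the T-type channels (Cav3) differ in their selectivity filter, where each repeat of the protein gives an acidic residue to the pore. The stretch of coding sequence around the filter residue of repeat IV is shown because it separates these classes within the 8 genes. Each sequence has 45 bases from a GENCODE M21 transcript on the GRCm38 (mm10) genome, read 5′ to 3′ on the coding strand, with the codon of the filter residue in capitals.
Cacna1c: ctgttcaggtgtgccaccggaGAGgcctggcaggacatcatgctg
Cacna1d: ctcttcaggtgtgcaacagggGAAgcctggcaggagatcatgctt
Cacna1a: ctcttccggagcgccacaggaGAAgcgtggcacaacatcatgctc
Cacna1b: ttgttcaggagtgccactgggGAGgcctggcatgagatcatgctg
Cacna1e: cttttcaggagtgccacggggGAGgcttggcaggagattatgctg
Cacna1g: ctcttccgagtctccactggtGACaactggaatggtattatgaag
Cacna1h: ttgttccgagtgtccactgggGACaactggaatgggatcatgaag
Cacna1i: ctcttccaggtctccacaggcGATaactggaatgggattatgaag
The codon encodes glutamate in the 5 high-voltage-activated genes and aspartate in the 3 T-type genes. The 3 T-type windows lie within 1 exon each, at chr11:94416406-94416450 on the minus strand for Cacna1g, chr17:25377762-25377806 on the minus strand for Cacna1h and chr15:80388476-80388520 on the plus strand for Cacna1i. The 5 other windows span an exon junction. Over these 45 bases Cacna1g was identical to Cacna1h at 86.7% and to Cacna1c at 57.8% of positions.

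Totals ran from 504785 to 597898 counts in overlap, 700556 to 3414593 in cfos and 877257 to 978877 in mCherry. The column cfos 2 was at or below cfos 3 in every gene, and the chi-square of the pair, at 0.824 per gene, was below sampling noise, where the 35 other pairs of columns had 9.08 to 58.5. Their mean, called the cfos pair below, was therefore counted as 1 sample, which leaves n = 3 for overlap, n = 2 for cfos and n = 3 for mCherry. In 0 genes was mCherry 2 above its 2 fellow columns added together, so it may not be an independent library, and the differences from mCherry are also given without it. Fos was at 72.4, 209 and 282 CPM (counts scaled to a common library size) in overlap, at 286 in cfos 1 and 24.7 in the cfos pair, and at 30.9, 21.3 and 11.3 in mCherry, so that 1 of the 2 cfos replicates had Fos RNA in the range of mCherry. Summed neuronal markers (10 genes) were present in all groups, at 4806 to 7840 CPM in overlap, 12513 to 29241 in cfos and 10669 to 12741 in mCherry, most of it from the long RNA Meg3. The 9 markers of the nucleus itself were not lowest in overlap, with sums of 466 to 1702 CPM in overlap, 865 to 980 in cfos and 352 to 641 in mCherry. Among them the transcription factor gene Pou3f2 was at 196 to 239.5 CPM in overlap, 126 to 212 in cfos and 35.2 to 104 in mCherry, while Sim1, above 0 in every library, was at 10.5 to 81.5 CPM in overlap, 19.6 to 79.7 in cfos and 17.1 to 44.0 in mCherry. The hormone genes Avp and Crh were higher in each overlap library than in each mCherry library. The hormone gene Oxt was not, at 70.6, 1121 and 156 CPM in overlap, 477 and 508 in cfos and 111, 305 and 398 in mCherry. It made most of the sum of 1702 CPM, that of overlap 2. Slc17a6 was at 150, 23.6 and 40.0 CPM in overlap, 119 and 95.5 in cfos and 168.5, 79.1 and 85.9 in mCherry. Of the 9 oligodendrocyte markers, whose sum was 402 to 1760 CPM in overlap, 4750 to 6802 in cfos and 1278 to 2411 in mCherry, only Opalin was at 0 in overlap and in mCherry. The 9 astrocyte markers summed to 824 to 920 CPM in overlap, 1036 to 1343 in cfos and 1043 to 1263 in mCherry. Other lists had their highest median in overlap: the 8 endothelial and mural markers summed to 501 to 643 CPM in overlap, 428 to 606 in cfos and 299.7 to 385 in mCherry, and the 8 microglial markers to 158 to 248 CPM in overlap, 104 to 109 in cfos and 89.7 to 160 in mCherry. The 6 ependymal markers ran from 10.5 to 59.9 CPM in overlap, 8.53 to 603 in cfos and 41.3 to 414 in mCherry. The libraries labelled as neurons thus held RNA of glia and vessels, and the part of these markers in the results below was not tested.

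The 8 genes received 10487 counts over the 9 columns. Levels below are CPM over TMM-scaled library sizes, which put libraries of different depth on 1 scale. In 4 of the 72 values of gene by column the count was 0, all of them in Cacna1h or Cacna1i, and the other 6 genes were above 0 in every column. Per kilobase of exon, averaged over the 8 replicates, the order was Cacna1a at 23.5 CPM, Cacna1g at 18.9, Cacna1e at 13.2, Cacna1d at 9.16, Cacna1b at 8.96, Cacna1c at 2.06, Cacna1h at 1.35 and Cacna1i at 0.373. Counts of 3′ ends depend little on transcript length, so the division may favour genes with short exons, and without it Cacna1e stood highest at 332 CPM, ahead of Cacna1a at 268. Each of the 3 channel classes was thus represented by at least 1 gene with counts in all libraries: both L-type genes, all 3 Cav2 genes and Cacna1g of the T-type genes.

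**Figure D1:**
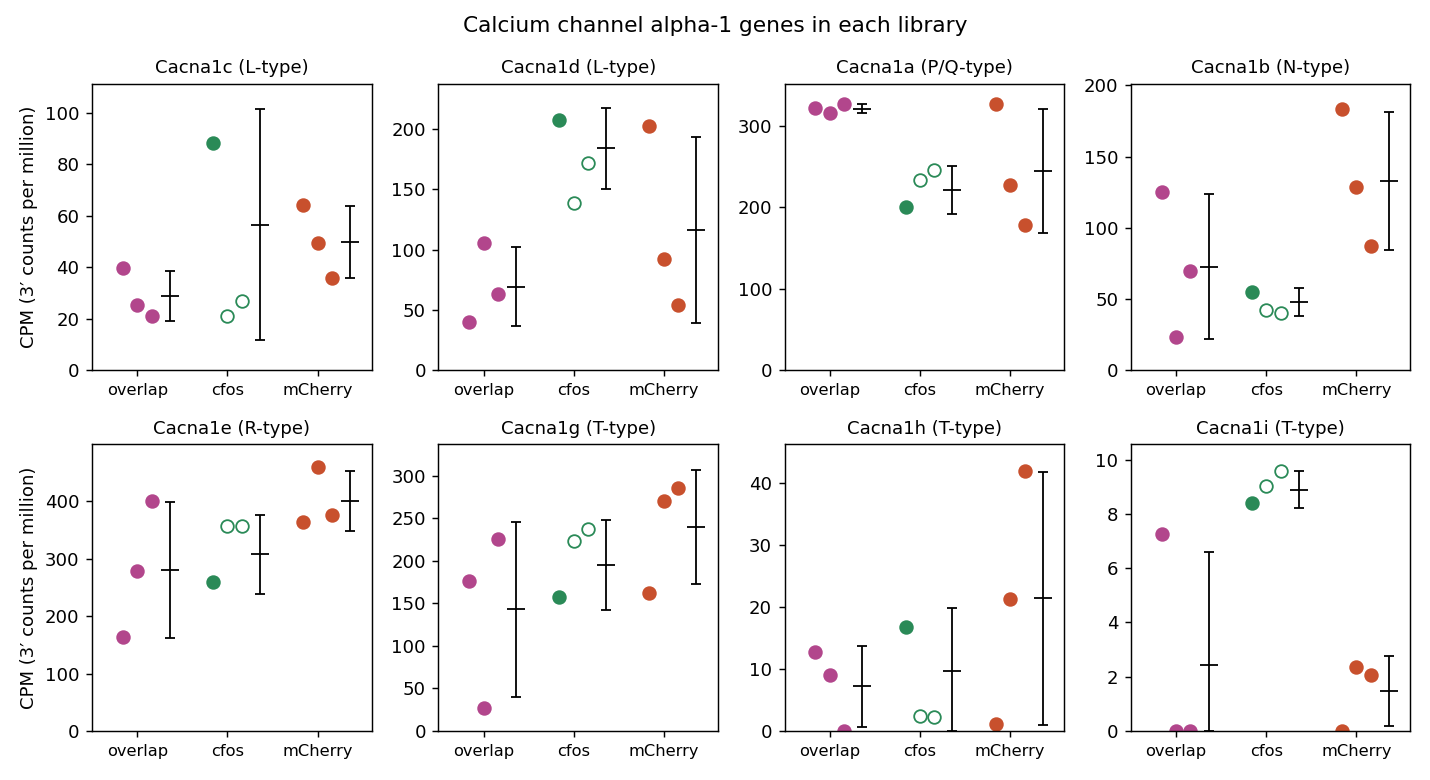
Level of each alpha-1 gene in each library, in CPM on a linear axis that starts at 0 and differs between panels. Filled points are single replicates, open points are the columns cfos 2 and cfos 3 that count as 1 sample, and bars give the mean ± SD over replicates, ending at 0 where the SD is larger than the mean. Cacna1a varied least in overlap, where its 3 points lie between 316 and 327 CPM.

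Among the L-type genes, Cacna1c was at 39.8, 25.4 and 21.1 CPM in overlap, at 88.4 and 24.7 in cfos 1 and the cfos pair, and at 64, 49.6 and 35.8 in mCherry. The overlap and mCherry values met only at their edges, while cfos 1 was above all other libraries and the cfos pair lay within the overlap range. Cacna1c rested on few reads, 10 to 22 in an overlap library. The gene lies at chr6:118587240-119196418 on the minus strand and overlaps Dcp1b of the plus strand. Dcp1b had 27, 14 and 11 counts in overlap, 96, 5 and 12 in the cfos columns and 8, 57 and 102 in mCherry. Cacna1c also holds the processed pseudogene Gm18981 on its own strand. That pseudogene had 5, 21 and 5 counts in overlap, 2, 5 and 7 in the cfos columns and 175, 88 and 0 in mCherry. Since the strand setting of the counting is not given, reads of Cacna1c and Dcp1b cannot be told apart where they overlap. Reads of Gm18981 may be counted for either gene, and the part of these neighbours in the Cacna1c values was not tested.

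Cacna1d, the L-type gene that opens at more negative voltages, was at 39.8, 105 and 63.2 CPM in overlap, at 208 and 160.3 in cfos, and at 203, 92.1 and 54.2 in mCherry. Every cfos value was above every overlap value, while mCherry spread over both ranges. The mean was 69.4 ± 33.1 CPM in overlap, 184 ± 33.4 in cfos and 116 ± 77.1 in mCherry (SD, n = 3, 2 and 3). Cacna1d had the smallest unadjusted p of any alpha-1 gene in any comparison: overlap over cfos was -1.40 on the log2 scale (SE 0.72, 95% interval -3.01 to 0.21), and edgeR's quasi-likelihood test with Benjamini-Hochberg adjustment gave an adjusted p of 0.473. Cacna1d lies at chr14:30039939-30491455 on the minus strand. It overlaps 2 protein-coding genes of the plus strand, Dcp1a by 11921 bases at its 5′ end (1 to 30 counts per column) and Chdh by 589 bases at its 3′ end (0 to 64 counts). It also holds 5 processed pseudogenes, of which Gm18072, on its own strand, had 1 to 368 counts per column with the highest in cfos 3. Reads of such neighbours may be counted for either gene.

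Of the Cav2 genes, Cacna1a was at 322, 316 and 327 CPM in overlap, at 201 and 242 in cfos, and at 327, 228 and 179 in mCherry. The overlap libraries lay above both cfos replicates and level with the highest mCherry library. Means were 322 ± 5.51 CPM in overlap, 221 ± 29.4 in cfos and 245 ± 75.6 in mCherry (SD, n = 3, 2 and 3). Cacna1a was the only alpha-1 gene with its highest mean in overlap. The 95% intervals of both differences included no change: overlap was 1.45-fold of cfos (0.773 to 2.73, adjusted p = 0.647 by edgeR) and 1.31-fold of mCherry (0.753 to 2.29, adjusted p = 0.678). On the log2 scale the difference from mCherry was 0.39 (SE 0.36) with all libraries and 0.16 without mCherry 2. Counting error was wider than the spread of the 3 overlap libraries, since the 174 counts of overlap 2 have an exact binomial 95% interval of 273 to 370 CPM of its unscaled total. Intervals of this kind cover counting error only. Cacna1a is overlapped over 5983 bases by the antisense gene Gm16183. That gene had 9, 6 and 1 counts in overlap, 21, 141 and 253 in the cfos columns and 24, 13 and 2 in mCherry. Since the strand setting is not given, reads of both genes cannot be told apart where they overlap.

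Cacna1b, the N-type gene, was at 125, 23.6 and 69.5 CPM in overlap, at 54.7 and 40.9 in cfos, and at 184, 129 and 87.0 in mCherry. All mCherry values were above all cfos values, and overlap spanned both. Within Cacna1b, on the opposite strand, lies the processed pseudogene Gm13459. It had 1, 27 and 13 counts in overlap, 0, 4 and 7 in the cfos columns and 0 in mCherry, and its reads may be counted for either gene. For Cacna1b the cfos mean was 47.8 ± 9.73 CPM and the mCherry mean 133 ± 48.4 (SD, n = 2 and 3), a log2 fold change of -1.48 for cfos over mCherry (SE 0.85, 95% interval -3.38 to 0.42, adjusted p = 0.394 by edgeR). Without mCherry 2 the same value was -1.71, with an adjusted p of 0.650, and over all 17 alternatives the adjusted p ran from 0.122 to 0.650.

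Cacna1e, the R-type gene, was at 163, 279 and 400.3 CPM in overlap, at 259.5 and 356 in cfos, and at 365, 460.5 and 376 in mCherry. The 3 mCherry values were above both cfos values, narrowly for the cfos pair and mCherry 1, and the overlap values spread over the range of all other libraries. The log2 fold change of cfos over mCherry was -0.38 (SE 0.44, 95% interval -1.36 to 0.60) with an adjusted p of 0.703 by edgeR, and without mCherry 2 it was -0.47. Cacna1a and Cacna1e had the narrowest intervals of the family in all 3 comparisons.

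Of the T-type genes, Cacna1g was at 176, 27.2 and 225 CPM in overlap, at 157 and 232 in cfos, and at 162, 270.4 and 285 in mCherry. Overlap 2 stood apart with 15 counts, against 97 and 107 in the other overlap libraries, and the remaining values of the 3 groups were interleaved. For overlap over mCherry the log2 fold change was -0.75 (SE 0.67, 95% interval -2.25 to 0.75, adjusted p = 0.670 by edgeR) with all libraries, -0.25 without overlap 2 and -0.85 without mCherry 2.

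Cacna1h, the T-type gene known for its role in nociceptors, had 7, 5 and 0 counts in overlap, 12, 4 and 7 in the cfos columns and 1, 18 and 41 in mCherry. The mCherry libraries therefore held both the lowest count above 0 and the highest. A count of 0 in overlap 3 allows up to 3 counts, or 5.94 CPM of its unscaled total. The log2 fold change of overlap over mCherry was -1.54 with an SE of 1.60, its 95% interval ran from -5.11 to 2.04, and without mCherry 2 it was -1.77. Cacna1i had 4, 0 and 0 counts in overlap, 6, 15 and 29 in the cfos columns and 0, 2 and 2 in mCherry, and was too low to be tested. In CPM it was at 8.42 in cfos 1 and 9.38 in the cfos pair, against 0 to 7.24 in overlap and 0 to 2.36 in mCherry. Its cfos values were above all others, but at counts as low as 6 in cfos 1 the exact binomial interval of 3.14 to 18.6 CPM reached into the interval of overlap 1, which was 1.82 to 17.1.

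The comparisons of all genes used edgeR's quasi-likelihood test with Benjamini-Hochberg adjustment over 16410 genes, of which 7 were alpha-1 genes. At an adjusted p of 0.05 the test called 0 genes in each comparison, a background of 0%, and so 0 alpha-1 genes. At an unadjusted p of 0.05, 2457, 1942 and 2899 genes passed for overlap over mCherry, overlap over cfos and cfos over mCherry, which is 15%, 11.8% and 17.7% of those tested, and 0 of the 7 alpha-1 genes were among them in any comparison. DESeq2 called 957 genes (5.57%), 957 (5.98%) and 1647 (10.3%) in the same order, and limma-voom with sample weights called 1332 (8.12%), 0 (0%) and 2163 (13.2%). Neither tool called an alpha-1 gene, nor did any other of the 17 alternative settings, in which the lowest adjusted p of an alpha-1 gene was 0.122.

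Without mCherry 2, the log2 fold changes of overlap over mCherry were -1.09 for Cacna1b, -0.98 for Cacna1c, -1.06 for Cacna1d and -0.59 for Cacna1e. Those of cfos over mCherry were -0.39 for Cacna1a, -0.054 for Cacna1c, 0.32 for Cacna1d, -0.41 for Cacna1g and -1.43 for Cacna1h. Of these, Cacna1c turned its direction.

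The intervals show what these libraries could resolve if mCherry 2 is taken as an independent library. For overlap over mCherry, changes of Cacna1a beyond 0.753-fold and 2.29-fold lie outside the 95% interval, and for Cacna1e the bounds are 0.383-fold and 1.28-fold. The bounds of Cacna1b, 0.177-fold and 1.69-fold, and those of Cacna1h, 0.0289-fold and 4.12-fold, are wider. Without mCherry 2 the SE of the log2 fold change rose from 0.36 to 0.48 for Cacna1a and from 0.39 to 0.50 for Cacna1e. The bounds given may therefore be too narrow. A p that misses the threshold does not show that the levels are equal.

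**Figure D2:**
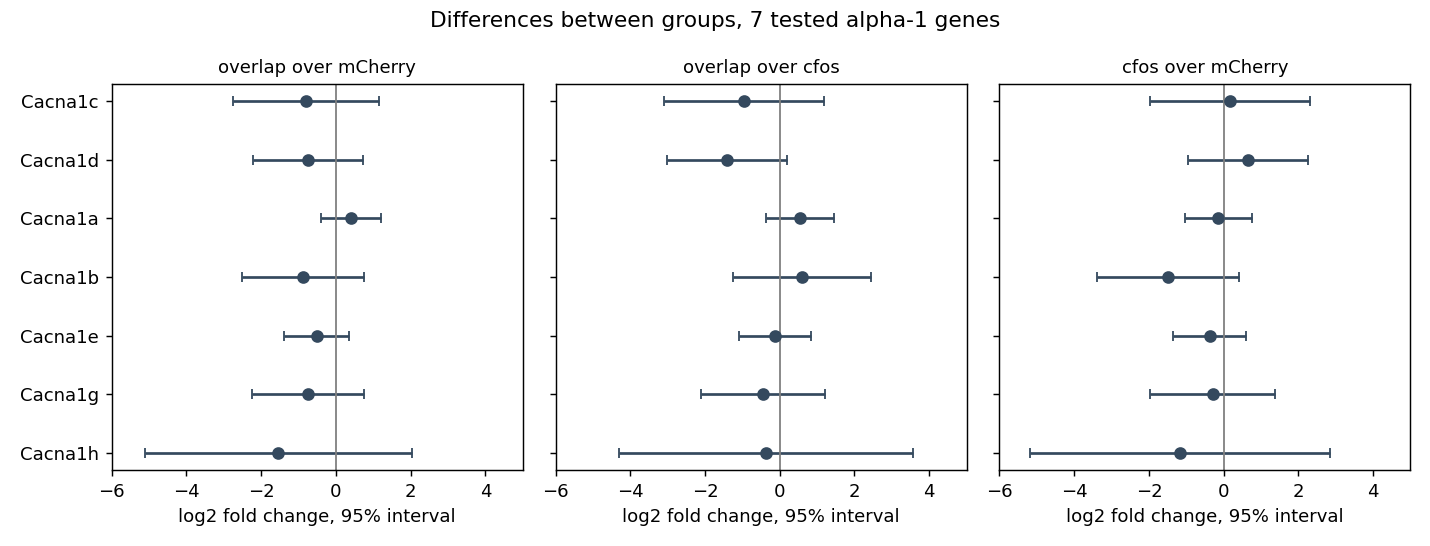
Log2 fold change of the 7 tested alpha-1 genes in the 3 comparisons, with 95% intervals from edgeR's quasi-likelihood fit as bars and no change as the vertical line. All 21 intervals include 0, and Cacna1h has the widest.

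By the ranges of the replicates, 0 of the 7 tested alpha-1 genes had overlap values wholly above or wholly below mCherry, against 13.5% and 8.88% of all tested genes. For overlap against cfos, 1 gene was wholly above (Cacna1a) and 1 wholly below (Cacna1d), against 13.6% and 12%. For cfos against mCherry, 0 were wholly above and 2 wholly below (Cacna1b and Cacna1e), against 18.5% and 14.2%. Cacna1c in overlap was also wholly below mCherry when libraries were scaled by RLE size factors or by totals over all genes. Those scalings moved the median log2 fold change of all genes for overlap over mCherry, which was 0.09, by -0.11 and -0.17, and that for cfos over mCherry, which was 0.04, by -0.12 and -0.13. Changes of this size are within the SE of every alpha-1 gene.

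The median log2 fold change of the 7 tested genes was -0.75 for overlap over mCherry, beside 0.09 for all genes, and 6 of the 7 were below 0, with Cacna1a as the exception. For overlap over cfos the median was -0.37, beside 0.12, with 5 of 7 below 0, and for cfos over mCherry it was -0.30, beside 0.04, again with 5 of 7. The direction of Cacna1b, Cacna1c, Cacna1e, Cacna1g and Cacna1h for overlap over cfos, and of Cacna1a and Cacna1c for cfos over mCherry, turned under at least 1 alternative setting. The comparisons share libraries, so these medians are not independent of each other. The overlap group had the lowest mean of the 3 groups in 5 of the 8 genes, mCherry the highest in 4, cfos in 3 and overlap in 1.

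Summed over the family, the alpha-1 genes took 885, 786 and 1106 CPM in overlap, 993 and 1069 in cfos and 1306, 1253 and 1062 in mCherry. The group means were 926 ± 164, 1031 ± 53.5 and 1207 ± 128 CPM (SD, n = 3, 2 and 3), and overlap 3 lay above the lowest mCherry library. The place of overlap 3 depended on the scaling. Over unscaled totals the family took 818, 794 and 1040 CPM in overlap against 1271, 1209 and 1060 in mCherry. Every overlap library was then below every mCherry library. The exact binomial 95% intervals of overlap 3 (953 to 1133) and mCherry 3 (997 to 1127) overlapped, however. In bulk captures, fewer cells that express a gene and less RNA per cell cannot be told apart. The general neuronal markers also summed lowest in overlap while those of the nucleus did not, with Oxt making most of the latter sum in overlap 2. The part of either marker list in the family totals was not tested.

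Shares within the family do not depend on library scaling. Cacna1a took 36.4%, 40.2% and 29.5% of alpha-1 counts in overlap, 20.2% and 22.7% in cfos, and 25.1%, 18.2% and 16.9% in mCherry. Each overlap library was above every other library, with group means of 35.4% ± 5.41, 21.4% ± 1.74 and 20.0% ± 4.41 (SD, n = 3, 2 and 3). This share was picked out after its values had been seen and is given without a test. The exact binomial 95% interval was 25.6% to 33.6% in overlap 3, the lowest of its group, and 22.7% to 27.6% in mCherry 1, the highest of the other libraries, so these neighbours overlap within counting error. A share of Cacna1a can be high because its own counts are high or because those of the other genes are low, which a share does not separate.

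The Cav2 genes together took 68.9% to 78.8% of alpha-1 counts in overlap, 51.8% to 59.9% in cfos and 60.5% to 67.1% in mCherry. With the cfos pair as 1 sample the ranges of the 3 groups did not overlap, with overlap highest and cfos lowest. Of the Cav2 genes, only Cacna1a had its highest mean share in overlap. Mean shares in overlap, cfos and mCherry were 7.80%, 4.67% and 10.8% for Cacna1b and 30.05%, 29.75% and 33.4% for Cacna1e. The column cfos 2 alone was at 61.6%, above mCherry 3 at 60.5%. Exact binomial 95% intervals overlapped between neighbours: 64.6% to 73% in overlap 1 and 64.4% to 69.7% in mCherry 1, 59.25% to 63.9% in cfos 2 and 57.45% to 63.5% in mCherry 3. These shares are given without a test. The L-type genes took 7.62% to 16.6% in overlap, 17.3% to 29.8% in cfos and 8.48% to 20.4% in mCherry, so that cfos lay above overlap but not above mCherry. The column cfos 2 alone, at 15.6%, was below overlap 2 at 16.6%. The T-type genes took 4.62% to 22.1% in overlap, 18.4% to 22.8% in cfos and 12.5% to 31.0% in mCherry, and overlap 2 alone made the low end. Shares of the same counts sum to 100%, so these 3 descriptions are not independent.

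**Figure D3:**
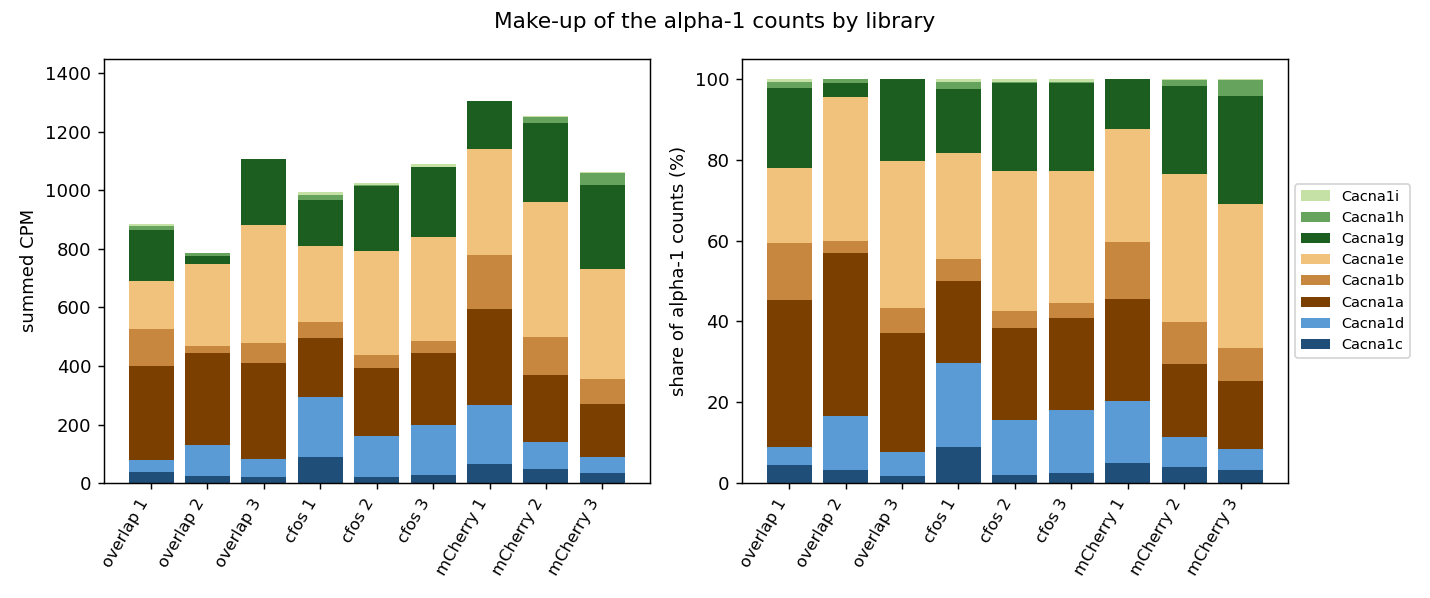
Alpha-1 genes stacked by library, as summed CPM (left, axis from 0) and as a percentage of the alpha-1 counts of that library (right). Blue bands are L-type, brown bands Cav2 and green bands T-type genes. In the right panel the band of Cacna1a is widest in the 3 overlap libraries, at 29.5% to 40.2%, and Cacna1g takes 3.46% in overlap 2.

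The alpha-1 genes did not move as a block. Over the 8 replicates, the 21 pairs of tested genes had a median Pearson correlation of log2 CPM of 0.020 and ranged from -0.715 (Cacna1a with Cacna1h) to 0.615 (Cacna1b with Cacna1g), with 11 pairs above 0. The replicates share their groups and their depth differences, so these values are a description. The genes most like Cacna1e, the alpha-1 gene of highest mean CPM, were Osbpl2, which encodes an oxysterol-binding protein, with r = 0.970, Rfc1, a subunit of the clamp loader in DNA replication, with r = 0.957, and Soga1 with r = 0.951. They lead 11213 genes compared, 11 of which passed r = 0.9, and 8 points are few for such a search.

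Outside the 8 genes, Cacna1f, the L-type gene of the retina, had 28, 25 and 39 counts in overlap, 2, 300 and 520 in the cfos columns and 191, 54 and 0 in mCherry. In both cfos and mCherry it was nearly absent from 1 library and plentiful in others, so its level followed the library more than the group. Cacna1s, the skeletal muscle gene, had 2 and 10 counts in cfos 2 and cfos 3 and 0 in all other columns. Nalcn, a related sodium leak channel, was at 92.3, 63.5 and 154 CPM in overlap, 169.7 and 142 in cfos and 76.8, 60.2 and 31.7 in mCherry. Its log2 fold change for cfos over mCherry was 1.47 (SE 0.69, adjusted p = 0.299 by edgeR) and 1.31 without mCherry 2, and limma-voom with sample weights called it.

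The alpha-1 protein works with auxiliary beta and alpha2delta subunits, which bring the channel to the membrane. The list of 16 auxiliary genes holds these and also Cacng and Stac genes, and 10 of the 16 could be tested. edgeR called 0 in each comparison, with 1, 0 and 1 below an unadjusted p of 0.05 for overlap over mCherry, overlap over cfos and cfos over mCherry. Of all tested genes, 15%, 11.8% and 17.7% passed that threshold. The gene with the smallest p was the beta subunit gene Cacnb2, at 185, 81.6 and 86.4 CPM in overlap, 265 and 48.6 in cfos and 19.2, 5.90 and 9.21 in mCherry. All overlap and cfos values were above all mCherry values. The log2 fold change was 3.34 for overlap over mCherry (SE 0.89, adjusted p = 0.258 by edgeR) and 3.75 for cfos over mCherry (SE 0.95, adjusted p = 0.213), and without mCherry 2 they were 2.85 and 3.22. DESeq2 gave adjusted p-values of 0.0128 and 0.00870 for these comparisons, and limma-voom with sample weights called Cacnb2 in both as well. Over the 17 alternatives its adjusted p ran from 0.00718 to 0.760 for overlap over mCherry and from 0.00870 to 0.529 for cfos over mCherry. Of the auxiliary genes, 9 of the 10 tested were below 0 for overlap over cfos, with a list median of -0.71 beside 0.12 for all genes. For overlap over mCherry 6 of the 10 were below 0, with a median of -0.25 beside 0.09. For cfos over mCherry it was 1 of the 10, with a median of 0.54 beside 0.04. The 10 include Cacng2, Cacng4 and Cacng7, which are neither beta nor alpha2delta genes.

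The presynaptic proteins that tether Cav2 channels to the release site or sense their calcium were all tested (16 of 16), and edgeR called 0 in each comparison, with 2, 5 and 1 below an unadjusted p of 0.05. The shares of all tested genes below it were 15%, 11.8% and 17.7%. Pclo, which encodes the active zone scaffold piccolo, was at 130.4, 122 and 112 CPM in overlap, 701 and 832 in cfos and 212, 230.3 and 200.5 in mCherry. The 3 groups were separate, with cfos highest and overlap lowest. For overlap over cfos the log2 fold change was -2.66 (SE 0.35, adjusted p = 0.128 by edgeR, 6.08e-07 by DESeq2), and for cfos over mCherry it was 1.84 (SE 0.34, adjusted p = 0.166 by edgeR, 0.00150 by DESeq2). Without mCherry 2 it was 1.69 for cfos over mCherry. Over the 17 alternatives the adjusted p of Pclo ran from 6.08e-07 to 0.689 for overlap over cfos and from 0.000459 to 0.529 for cfos over mCherry. Syt1, the calcium sensor of transmitter release, was at 136, 65.3 and 122 CPM in overlap, 654 and 353 in cfos and 387, 331 and 277 in mCherry, with a log2 fold change of -1.62 for overlap over mCherry (SE 0.42, adjusted p = 0.258 by edgeR, 0.0270 by DESeq2, and 0.0270 to 0.760 over the 17 alternatives), or -1.82 without mCherry 2. The list's median for overlap over cfos was -0.88 beside 0.12 for all genes, with 13 of 16 below 0. For overlap over mCherry it was -0.23 beside 0.09, with 8 of 16 below 0. For cfos over mCherry it was 0.86 beside 0.04, with 3 of 16. Syt1 and Snap25 of this list also count among the neuronal markers, which summed lower in every overlap library than in any other library.

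Among the genes that buffer, sense or respond to calcium, edgeR called 0 of 17 tested in each comparison, with 1, 3 and 1 below an unadjusted p of 0.05. The shares of all tested genes below it were 15%, 11.8% and 17.7%. Camk2b, a subunit of a calcium-dependent kinase, was at 170.2, 278 and 236 CPM in overlap, 494 and 577 in cfos and 227, 246 and 209 in mCherry. Its cfos values were above all others, with a log2 fold change of 1.24 for cfos over mCherry (SE 0.37, adjusted p = 0.232 by edgeR) and 1.09 without mCherry 2, called by limma-voom with sample weights. The list's median for overlap over cfos was -1.09 beside 0.12 for all genes, with 15 of 17 below 0. For overlap over mCherry it was -0.31 beside 0.09, with 12 of 17 below 0. For cfos over mCherry it was 0.35 beside 0.04, with 3 of 17.

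Of the 20 genes for calcium release and clearance, 17 were tested and edgeR called 0, with 2, 0 and 0 below an unadjusted p of 0.05. The shares of all tested genes below it were 15%, 11.8% and 17.7%. Itpr3, an inositol trisphosphate receptor of the endoplasmic reticulum, had 0 counts in overlap and 151 in mCherry, all in mCherry 2 and mCherry 3. With counts pooled by group it was at least 28.8-fold lower in overlap, taking 3 counts over the group as the limit. That bound covers counting error only, and mCherry 1 had 0 counts as the overlap libraries did. The adjusted p was 0.288 by edgeR, and without mCherry 2 Itpr3 did not pass the filter on low counts. Of the calcium-activated potassium channels, 4 of 6 were tested and edgeR called 0. Below an unadjusted p of 0.05 were 1, 1 and 0 of these, beside the same shares of all tested genes. Kcnma1, the pore of the BK channel that opens beside calcium channels, was at 103, 99.8 and 143 CPM in overlap, 233 and 288 in cfos and 177, 138 and 114 in mCherry. Both cfos values were above all others, with a log2 fold change of -1.18 for overlap over cfos (SE 0.48, adjusted p = 0.402 by edgeR). Of the 17 release and clearance genes, 10, 11 and 7 were below 0 for overlap over mCherry, overlap over cfos and cfos over mCherry. For the potassium channels it was 2 of 4 in each comparison.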

How the data were processed

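Smart-3SEQ libraries of laser-captured mouse neurons were deposited as 1 table of raw counts per gene, with 9 columns matched to the labels by name. The submitters' processing notes name featureCounts, UMI-tools, STAR and Trim Galore as the tools the authors used, and mm10 as the build. Versions, strand setting and the handling of molecular identifiers were not given in the sources used here, so counts may hold PCR copies. Of the identifiers, 54723 matched GENCODE M21.

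In R 4.3.3, edgeR 4.0.16 was run after filterByExpr by group (minimum count 10) and TMM scaling, as 1 robust quasi-likelihood fit of all 3 groups over 8 replicates, without covariates (biological coefficient of variation 0.958), with two-sided tests and Benjamini-Hochberg adjustment at 0.05. SE is the log2 fold change over the square root of its F value. The rounded mean of cfos 2 and cfos 3 entered as 1 replicate. CPM use TMM-scaled totals over the genes tested, and log2 CPM for correlations a prior count of 2. The 3 counts that a count of 0 allows came to 5.02 to 5.94 CPM of the unscaled total in overlap. Totals over all genes were used first and were replaced by totals over the genes tested after results had been seen. Totals over all genes are therefore given as an alternative added after seeing the data. Further alternatives were RLE size factors, DESeq2 1.42.0, limma 3.58.1 voom with sample weights, no filter, a minimum count of 30, all 9 columns, only the groups compared, a replicate block, and each replicate left out. The procedure was also run on simulated data, the outcome of which is not reported here.

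The 8 genes and the lists were chosen with earlier results of these data known. The genes named are the 8, Cacna1f, Cacna1s and Fos, the 2 tested genes of smallest p in each list and comparison (not all printed, and 1 not reported here), and the 3 genes most correlated with the alpha-1 gene of highest mean CPM.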

Additional observations from a re-analysis of the deposited data

How the results depend on the processing

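The count of alpha-1 genes called by an adjusted p was 0 in all 3 comparisons under all 17 alternatives, each left-out replicate included. The count over all genes, 0 by edgeR in each comparison, stayed at 0 with each replicate left out, but for overlap over mCherry it was 957 by DESeq2, 1332 by limma-voom with sample weights and 484 without a count filter. For overlap over cfos it was 957 by DESeq2, 214 without a filter and 15 with all 9 columns as samples. For cfos over mCherry it was 1647 by DESeq2, 2163 by limma-voom with sample weights, 1197 without a filter, 2 with the stricter filter and 247 with all 9 columns. In that comparison DESeq2 called 459 genes higher and 1188 lower in cfos, while limma-voom called 1670 higher and 493 lower, and the cause was not tested.

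Of 352 recomputed log2 fold changes of the alpha-1 genes, none of them past the threshold, 331 kept their direction and 21 reversed: 0 for overlap over mCherry, 11 for overlap over cfos and 10 for cfos over mCherry. For overlap over cfos, limma-voom with sample weights gave 0.042 for Cacna1c and 0.83 for Cacna1h, and all 9 columns gave 0.097 for Cacna1h. With each replicate left out in that comparison, Cacna1b ran from -0.038 (without overlap 1) to 1.03, Cacna1c from -1.46 to 0.18 (without cfos 1), Cacna1e from -0.47 to 0.27 (without the cfos pair), Cacna1g from -0.93 to 0.039 (without overlap 2) and Cacna1h from -1.03 to 1.43 (without cfos 1). For cfos over mCherry, Cacna1c was -0.047 by DESeq2, -0.77 by limma-voom, -0.14 with all 9 columns and -0.048 with library sizes over all genes, and Cacna1a was 0.071 by limma-voom. With each replicate left out there, Cacna1a ran from -0.62 to 0.13 (without mCherry 1) and Cacna1c from -0.996 (without cfos 1) to 0.49. A group left with 1 cfos sample was assumed to vary like the other groups.

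For Cacna1f the log2 fold changes were -0.59 (SE 1.58) for overlap over mCherry, -0.59 (SE 1.73) for overlap over cfos and 0.0059 (SE 1.73) for cfos over mCherry, so the last had no direction to lose. For overlap over mCherry it was 0.24 by limma-voom and ran from -1.17 to 0.89 (without mCherry 1) with each replicate left out. For overlap over cfos it ran from -1.60 to 4.47 (without the cfos pair). For cfos over mCherry it was -0.19 with RLE size factors, -0.20 by DESeq2, -0.05 without a filter, -0.12 with the stricter filter and -0.12 with library sizes over all genes, and it ran from -5.21 (without the cfos pair) to 1.48.

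Deviations of libraries with the same replicate number had correlations of -0.04 to 0.06, and those with different numbers -0.06 to 0.06. Values of a library with the cfos replicates were equal and opposite, and the cfos pair averages columns of different numbers. With so few replicates per group, these values cannot decide whether the number pairs libraries. With a replicate block, 0 alpha-1 genes and 0 genes in all were called in each comparison, and reversals were those of Cacna1c for cfos over mCherry (-0.22) and of Cacna1f, at 0.019, 0.23 and -0.21 for overlap over mCherry, overlap over cfos and cfos over mCherry. Depth limits Cacna1h and Cacna1i most, with at most 41 and 29 counts in a column.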
